A study of Mus musculus with 7 samples.

Results

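The glucagon gene Gcg, the other genes of the secretin family of peptide hormones and the receptors of this family were followed in sorted mouse pancreatic alpha cells. A total of 10 genes were taken by symbol from the 55536 genes of the count table: the peptide genes Gcg, Gip, Sct, Vip, Adcyap1 and Ghrh, and the receptor genes Gcgr, Glp1r, Gipr and Sctr. All 10 were found, once each. RNA was sequenced from 4 control libraries (genotype Nkx2.2+/+;Gcg-iCre;Rosa26:tdTomato) and 3 knockout (KO) libraries (Nkx2.2fl/fl;Gcg-iCre;Rosa26:tdTomato). Both groups thus carried the Gcg-iCre driver, a Cre recombinase under the control of the glucagon gene, and the tdTomato reporter by whose fluorescence the cells were sorted. Nkx2.2 is a homeodomain transcription factor of islet cells, and its floxed copies are recombined only in cells in which the driver is or was active. The mice were of a C57BL/6J background, and their age is not given in the sources used here. One KO column is numbered 4, unlike any KO sample title, so its sample is not known and it is called the unnumbered KO library. Values per library are listed as controls 1 to 4, followed by KO 1, KO 2 and that library. Nothing in the labels says whether the libraries came from separate animals, so p-values measure the spread between these libraries.

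Secretin-family peptides are cut from larger precursors in secretory granules and act through class B G protein-coupled receptors, most of which raise cyclic AMP. Proglucagon yields glucagon in alpha cells through the convertase PC2 (gene Pcsk2), whereas PC1/3 (gene Pcsk1) releases glucagon-like peptides, the main products of intestinal L cells. Glucagon raises hepatic glucose output, and the incretins GLP-1 and GIP act through Glp1r and Gipr on islet cells.

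The 300 bases around the annotated start of 3 genes are shown because Gcg and Glp1r were the 2 genes of the family past the threshold and Gip is the incretin gene whose promoter shares a 5-letter match with that of Gcg. They are RefSeq sequences of build GRCm38.p6, 250 bases before to 50 after the start, 5′ to 3′ on the strand of the gene. Capitals mark the core AAGTG of NK2-class homeodomain factors, the class of Nkx2.2, read on both strands.
Gcg (chr2:62483604-62483903, minus strand): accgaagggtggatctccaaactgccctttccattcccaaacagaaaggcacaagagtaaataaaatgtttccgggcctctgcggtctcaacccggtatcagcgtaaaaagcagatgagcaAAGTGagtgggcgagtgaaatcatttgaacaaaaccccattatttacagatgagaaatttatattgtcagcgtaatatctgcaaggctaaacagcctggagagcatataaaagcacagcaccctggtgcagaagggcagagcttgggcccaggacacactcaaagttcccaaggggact
Glp1r (chr17:30901617-30901916, plus strand): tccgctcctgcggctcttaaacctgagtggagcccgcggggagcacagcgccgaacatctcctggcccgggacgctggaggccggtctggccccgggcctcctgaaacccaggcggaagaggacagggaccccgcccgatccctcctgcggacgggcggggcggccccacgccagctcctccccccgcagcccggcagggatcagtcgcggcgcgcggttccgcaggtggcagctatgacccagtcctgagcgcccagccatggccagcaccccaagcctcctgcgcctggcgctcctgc
Gip (chr11:96024295-96024594, plus strand): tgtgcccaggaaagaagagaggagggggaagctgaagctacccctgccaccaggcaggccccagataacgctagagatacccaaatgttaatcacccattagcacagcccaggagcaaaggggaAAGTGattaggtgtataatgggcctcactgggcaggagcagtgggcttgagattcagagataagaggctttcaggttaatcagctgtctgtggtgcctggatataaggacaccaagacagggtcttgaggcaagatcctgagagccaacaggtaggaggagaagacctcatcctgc
The Gcg window holds 1 match to AAGTG, which begins at position -129 from the start, and the Gip window holds 1 at -126. The Glp1r window holds 0. The match is common, being present in 46.4% of 32851 RefSeq promoter windows of the same length. The Gcg window also holds a TATA box (TATAAA) at -24, found on the gene strand in 8.32% of windows, 2 matches to the homeodomain core TAAT (58% of windows, both strands) and 1 to the forkhead core TGTTTA (13.4%, both strands). Letters C and G make up 47% of the Gcg window and 73.7% of the Glp1r window. Promoter entries were matched for 8 of the 10 genes. Besides Gcg and Gip, only Ghrh held AAGTG, with 1 match in its first window and 2 in its second. A match describes letters, and binding was not measured here.

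Library totals ran from 45483504 to 72456557 counts. Control 4 stood apart, with counts for 31024 genes against 23150 to 25873 in the other libraries. For all 10 genes, 0% of the exon length lies under exons of the opposite strand. Nkx2-2 itself, the targeted gene, had 73.2% of its control level in KO (log2FC, the log2 fold change of KO over control, -0.45, SE 0.13, adjusted p 0.0244 in DESeq2, 0.152 in edgeR). This count covers the whole gene and not only the floxed part. Leaving out single libraries ended this call in 5 of 7 cases, with adjusted p-values of up to 0.155 in DESeq2.

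Levels were compared between genes as normalized counts (counts divided by DESeq2 size factors) per kb of exon. Gcg stood at 4714007 per kb in controls and ranked 2 among all genes, behind Gm23935, annotated as a small RNA. In KO it stood at 2291241 per kb and ranked 3, behind Gm23935 and Gm24270. Next came Glp1r, with 993 per kb in controls and 1571 in KO, and Gipr, with 842 and 821. The control ranges of these 2 receptors overlapped (714 to 1226 for Glp1r, 782 to 903 for Gipr), so their order in controls is not settled, while in KO every Glp1r value lay above every Gipr value. Vip stood at 208 per kb in controls. Sct (44.7) and Gcgr (40.5) followed with overlapping control ranges. Gip (2.51), Adcyap1 (2.09) and Sctr (0.293) lay at the limit of detection, and Ghrh had 0 counts in all 7 libraries. Of the 10 genes, 6 had enough counts to be tested: Gcg, Sct, Vip, Gcgr, Glp1r and Gipr.

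**Figure D1:**
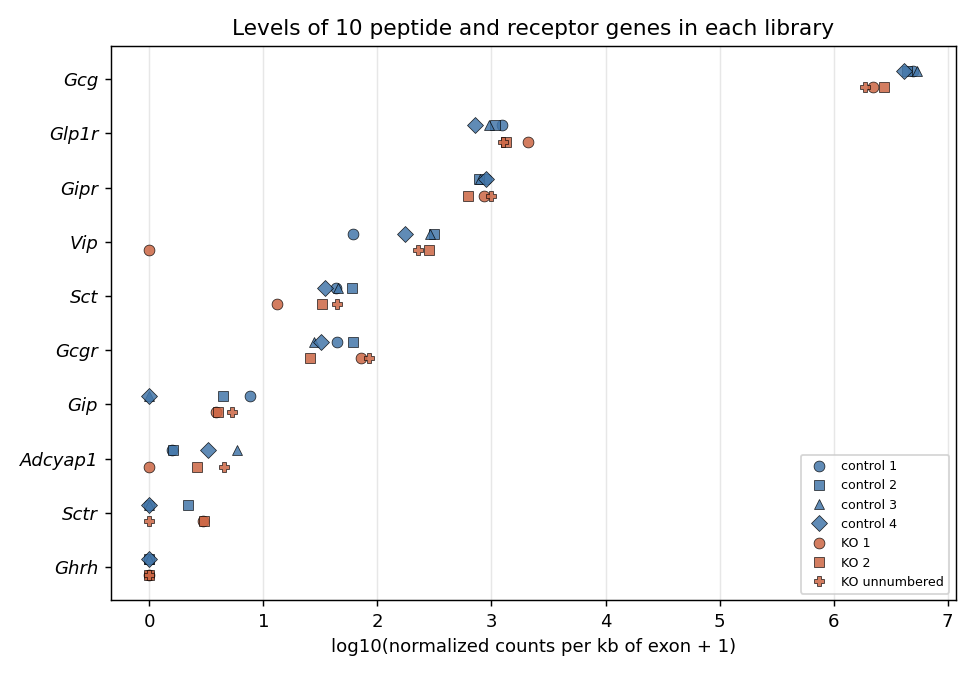
Level of each gene in each library, as log10 of normalized counts per kb of exon plus 1. Blue symbols are control and orange symbols KO libraries. Gcg lies far above every other gene, Glp1r and Gipr share the next level, and Gip, Adcyap1, Sctr and Ghrh lie near 0.

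The comparison of KO with control asked how loss of Nkx2.2 in alpha cells alters these transcripts. Gcg fell and Glp1r rose, and the other 4 tested genes did not pass an adjusted p of 0.05. DESeq2 thus called 2 of 6 tested genes, against 3.9% of all 19719 genes tested (1.96% higher and 1.94% lower in KO). The quasi-likelihood test of edgeR, which called 1.05% of 19310 genes, called 0 of the 6 after adjustment over all genes, with 2 (Gcg and Glp1r) at an unadjusted p under 0.05. The groups did not overlap for 2 of the 6 genes, and for 11.4% of all genes tested (5.76% with KO higher and 5.6% with KO lower). The median log2FC was -0.17 over the 6 genes and 0.0071 over all genes tested.

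Gcg (ENSMUSG00000000394, GRCm38 chromosome 2, 62474530 to 62483650, minus strand) encodes proglucagon. Its normalized counts were 7425477, 6530138, 8050552 and 6164736 in controls and 3332911, 4098502 and 2837930 in the KO libraries. Every KO library lay below every control, and the highest KO library, KO 2, was still below the lowest control, control 4. The mean level in KO was 48.6% of that in controls (log2FC -1.04, SE 0.15, adjusted p 7.58e-10 in DESeq2, 0.175 in edgeR). The log2FC stayed between -1.19 and -0.92 when each library was left out in turn, and Gcg passed in DESeq2 in all 7 of these fits. In bulk libraries, fewer cells that make a transcript and less of it per cell cannot be told apart.

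As a share of all counts, Gcg took 13.3%, 11.4%, 13.5% and 11.8% of the control libraries and 6.20%, 7.39% and 5.87% of the KO libraries. The share was lower in all 3 KO libraries than in any control. Controls averaged 12.5% ± 1.1 (SD, n = 4), against 6.48% ± 0.799 (SD, n = 3) for KO, a difference of -6.01 percentage points with an exact two-sided permutation p of 0.0286, the smallest that 35 splits can give. Without ribosomal and mitochondrial counts in the denominator the shares were 16.1% ± 1.47 and 8.30% ± 1.17. Of 9 genes in the alpha cell marker list, Gcg included, 7 fell and 0 rose in DESeq2, with a median log2FC of -0.73, and 3 were called in edgeR. The summed normalized count of 3 gamma cell markers ran from 179628 to 402644 in controls and from 616600 to 784991 in KO, and nearly all of it was Ppy, the pancreatic polypeptide gene (255710 ± 99601 in controls, 726194 ± 96158 in KO). Ppy rose, while Aqp4 (log2FC 0.05) and Sertm1 (-0.13) were not called, and the median of the list was 0.05. The part of gamma cells in the change of Gcg was not tested.

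**Figure D2:**
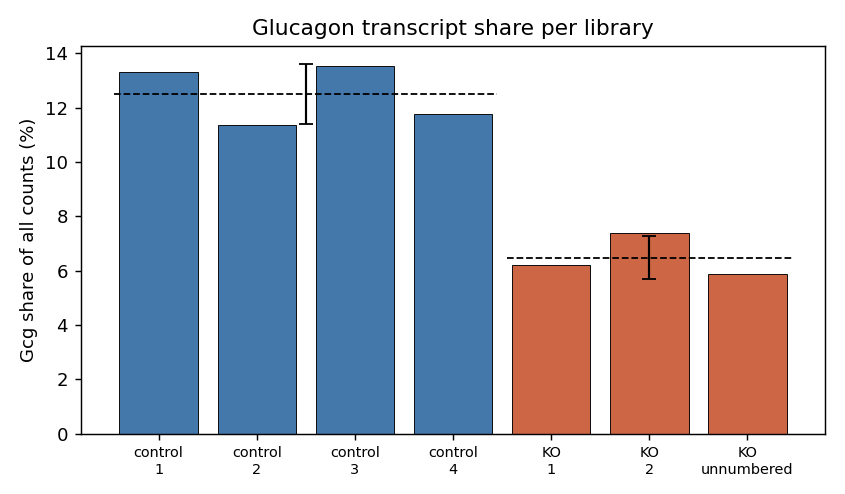
Share of all counts assigned to Gcg, in percent, in each control (blue) and KO (orange) library. Dashed lines are group means and error bars are SD. All 3 KO libraries lie below 8% and all 4 controls above 11%.

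Among the remaining peptide genes, none was called. Vip (ENSMUSG00000019772, chromosome 10, 5639218 to 5647617) encodes vasoactive intestinal peptide, a neuropeptide of the autonomic innervation. Its normalized counts were 204, 1059, 975 and 596 in controls and 0, 960.5 and 762 in the KO libraries. KO 1 held 0 counts, under the floor of 3 counts, while KO 2 lay within the control range. The groups overlapped, and the log2FC of -0.30 (SE 1.72, adjusted p 1.00 in DESeq2) turned to 0.28 without KO 1.

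The genes whose levels over the 7 libraries were most like Vip, by Pearson correlation of log2(normalized count + 1) across 12765 other genes, were Nos1 (r = 0.992), Jkamp (0.979) and Sncg (0.975). Nos1 encodes neuronal nitric oxide synthase and Sncg encodes gamma-synuclein, both known from neurons. Nos1 had 107, 720, 628 and 241 normalized counts in controls and 0, 857 and 330 in the KO libraries. Its low libraries were those of Vip, KO 1 first and control 1 next. Prph, the gene of the neuronal filament peripherin and part of a list of Schwann cell and neuronal markers, had 70.3, 594, 510 and 80.9 in controls and 9.78, 531 and 194 in KO. Of the 6 genes of the list 0 were called in either tool (0 in DESeq2 and 0 in edgeR, with 1 and 1 at an unadjusted p under 0.05). Its summed level ran from 677 to 1486 in controls and from 804 to 1231 in KO. The part of nerve-derived RNA in the Vip counts was not tested. The correlations are descriptions over 7 libraries that share depth and sorting, and without KO 1 they were 0.94 for Nos1, 0.79 for Jkamp and 0.87 for Sncg.

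**Figure D3:**
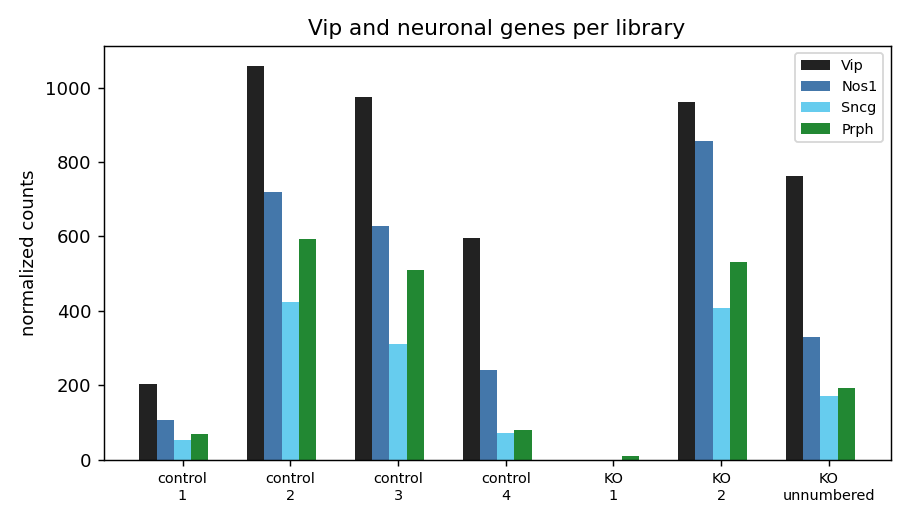
Normalized counts of Vip, Nos1, Sncg and Prph in each library. Vip, Nos1 and Sncg are at 0 and Prph is near 0 in KO 1, and Vip stands between 204 and 1059 in the other libraries.

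Sct (ENSMUSG00000038580, chromosome 7, 141278330 to 141279133) encodes secretin, the duodenal hormone that drives bicarbonate secretion. Normalized counts were 27.2, 37.7, 28.8 and 21.7 in controls and 7.82, 20.7 and 28.1 in KO. The unnumbered KO library lay inside the control range and the other KO libraries below it. The log2FC of -0.60 (SE 0.67, adjusted p 0.962) had a 95% interval from -1.92 to 0.72. At 8 to 38 raw counts per library, any change inside this interval was compatible with the data. Gip, the gene of glucose-dependent insulinotropic polypeptide from intestinal K cells, had raw counts of 4, 2, 0 and 0 in controls and 2, 2 and 4 in KO. Adcyap1, which encodes the neuropeptide PACAP, had 2, 2, 14 and 12 in controls and 0, 6 and 18 in KO. Ghrh, the gene of growth hormone-releasing hormone, had 0 counts in every library, each under the floor of 3. None of these 3 genes received an adjusted p-value, and no fold change is given for them.

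Among the receptors, Glp1r alone was called. Glp1r (ENSMUSG00000024027, chromosome 17, 30901817 to 30940791, plus strand) encodes the GLP-1 receptor, best known from beta and delta cells. Normalized counts were 7122, 6299, 5505 and 4151 in controls and 12189, 7852 and 7338 in the KO libraries. All 3 KO libraries lay above all 4 controls, KO 1 far above and the unnumbered KO library only just above control 1. The mean rose from 5769 ± 1265 (SD, n = 4) to 9126 ± 2665 (SD, n = 3), a log2FC of 0.66 (SE 0.21, adjusted p 0.0479 in DESeq2, 0.277 in edgeR). This call lies just inside the threshold. Without KO 1 the log2FC was 0.39 (adjusted p 0.626), and without control 3 it was 0.64 (adjusted p 0.171). It passed in the 5 fits that left out another library. Control 4 and the unnumbered KO library were the 2 deepest. Without them the log2FC was 0.67 (adjusted p 0.00512), and with them as a batch term it was 0.71 (adjusted p 2.29e-05), both in DESeq2.

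Markers of beta and delta cells varied between the same libraries. The summed normalized count of 9 beta cell markers was 608184, 693220, 506247 and 338218 in controls and 976137, 648613 and 531214 in KO, highest in KO 1 and lowest in control 4, as for Glp1r. Of these 9 genes, 1 (Iapp) rose and 0 fell, and their median log2FC was 0.39. The sum of 4 delta cell markers was 345478, 398978, 227495 and 196263 in controls and 632402, 355301 and 441321 in KO, with 1 gene (Rbp4) higher. No listed marker of either type was at 0 in all libraries. With the mean log2 level of the beta cell markers as a covariate (tried once these values were known) the log2FC of Glp1r was 0.22 (adjusted p 0.577) and that of Gcg still passed.

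Gipr (ENSMUSG00000030406, chromosome 7, 19156061 to 19166127, minus strand) encodes the receptor of GIP. Normalized counts were 3145, 2722, 2777 and 3087 in controls and 2991, 2146 and 3442 in KO. KO 2 was the lowest and the unnumbered KO library the highest of all 7, so the groups overlapped. The log2FC was -0.04 (SE 0.17, adjusted p 1.00), with a 95% interval from -0.36 to 0.29. It was 0.075 when libraries were scaled to their totals, a scaling that moved the median of all genes by 0.10.

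Gcgr (ENSMUSG00000025127, chromosome 11, 120530699 to 120538986, plus strand), the glucagon receptor gene, had 115, 158, 70.6 and 81.7 normalized counts in controls and 188, 64.0 and 219 in KO. KO 2 was the lowest of all libraries while the remaining KO libraries were above every control. The log2FC was 0.57 (SE 0.47, adjusted p 0.859), with a 95% interval from -0.36 to 1.50. Sctr, the secretin receptor gene of duct cells, had raw counts of 0, 2, 0 and 0 in controls and 4, 4 and 0 in KO and was not tested.

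**Figure D4:**
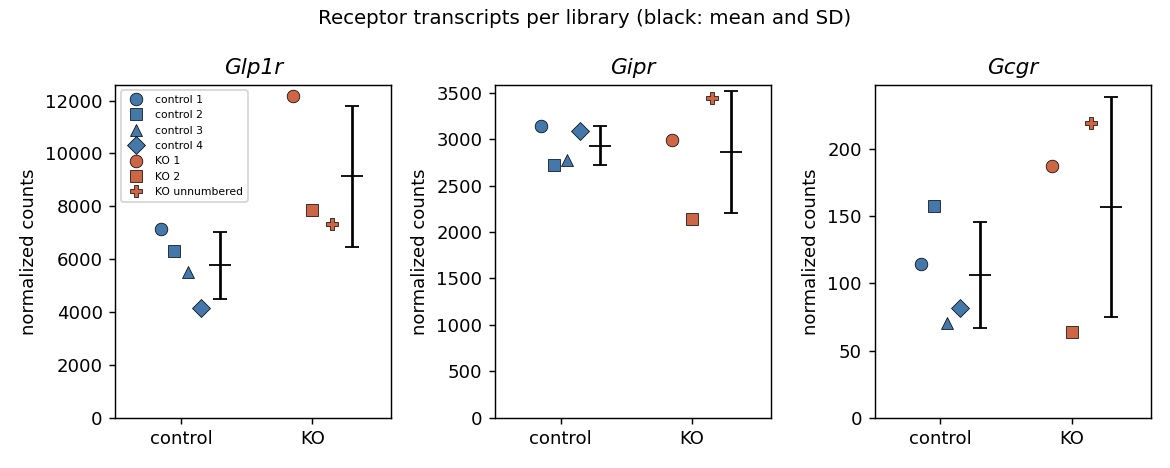
Normalized counts of Glp1r, Gipr and Gcgr in control (blue) and KO (orange) libraries, with the mean and SD of each group in black. The Glp1r values of the groups do not overlap, and those of Gipr and Gcgr do.

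The patterns most like each receptor over the 7 libraries were those of Bhlhe40 (r = 0.996), Hgsnat (0.990) and Bicd2 (0.984) for Glp1r. For Gipr they were Nae1 (0.985), Dvl1 (0.984) and Tcirg1 (0.976), and for Gcgr they were Gm5577 (0.972), Zfp52 (0.970) and Fam184a (0.969). Bhlhe40, a basic helix-loop-helix repressor gene, had 722, 637, 587 and 433 normalized counts in controls and 1128, 735 and 722 in KO, with KO 1 highest and control 4 lowest as for Glp1r. None of these 9 genes was called. For Gcg, the closest patterns were those of Elmod1 (r = 0.995), Apod (0.992) and Slc3a2 (0.991), and all 3 were called in both tools with all 7 libraries. These genes were picked for likeness to Gcg, whose groups did not overlap, so their calls follow largely from that choice. In edgeR, the Elmod1 call ended without KO 1 (adjusted p 0.0930), the Slc3a2 call in all leave-one-out fits but those without control 2 or control 4 (up to 0.116), and the Apod call in all but that without control 4 (up to 0.203). Slc3a2, which encodes the heavy chain shared by several amino acid transporters, had 8199, 6920, 9034 and 6623 normalized counts in controls and 4175, 4377 and 3448 in KO, with no overlap (log2FC -0.94, adjusted p 2.83e-08 in DESeq2 and 0.0202 in edgeR). Elmod1 had a log2FC of -2.18 (adjusted p 5.48e-13 in DESeq2 and 0.0132 in edgeR) and Apod, a lipid-binding lipocalin gene, of -1.49 (8.91e-06 and 0.0409). Over deviations from the group means, which leave out the difference between the groups, r with Gcg was 0.958 for Elmod1, 0.953 for Apod and 0.924 for Slc3a2. The 3 genes were picked for the highest r over the same libraries, so these values are not independent of that choice either. Likeness over 7 libraries describes level only.

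Further class B receptor genes were examined as a list of 11. Of these, 6 could be tested and 0 were called in DESeq2 or in edgeR (2 and 1 at an unadjusted p under 0.05), with a median log2FC of 0.25. Vipr1, a receptor of Vip and PACAP, was the most abundant at 1539 normalized counts per kb in controls and 1361 in KO. Calcrl, the 1 of these 6 whose groups did not overlap (log2FC 3.04, adjusted p 0.363 in DESeq2), was called when control 2 or control 3 was left out (adjusted p 2.47e-11 and 0.00942 in DESeq2). With the replicate number as a block Calcrl was called as well (log2FC 2.63, adjusted p 2.92e-06 in DESeq2). That fit held only numbers 1 and 2, without control 3, control 4 and the unnumbered KO library. Crhr2 (17.4 and 30.7 per kb) and Adcyap1r1 (14.5 and 12.4 per kb) followed in controls at far lower levels, while in KO Calcrl (61.2 per kb, 7.44 in controls) stood above both.

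Of 10 receptor partners, 0 were called in DESeq2 or in edgeR (2 and 2 at an unadjusted p under 0.05), and their median log2FC was -0.03. Gnas, which encodes the stimulatory G protein subunit, led this list at 11297 normalized counts per kb in controls and 8679 in KO. Its normalized count in control 4 was 29312, against 132852 to 185923 in the other controls, and 22.0% of its exon length lies under opposite-strand exons. Gnas was called, lower in KO, when control 4 was left out (log2FC -0.71, adjusted p 0.000177 in DESeq2, 0.110 in edgeR). The beta-arrestin gene Arrb2 was called when the unnumbered KO library was left out (log2FC -0.53, adjusted p 0.0106 in DESeq2). With the 2 deepest libraries left out, Gnas, Grk3 and Arrb2 were called lower (adjusted p 0.00115, 0.00138 and 0.00211 in DESeq2), and with these libraries as a batch term Grk3 and Arrb2 were (1.22e-05 and 0.00110). With the replicate number as a block, over numbers 1 and 2 only, Gnas and Grk3 were called lower (adjusted p 0.00316 and 0.0385 in DESeq2). Grk2 (988 and 925 per kb) and Grk3 (707 and 505 per kb) encode kinases that desensitise such receptors.

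In the cyclic AMP list, 22 of 23 genes were tested, 1 rose and 1 fell, and the median log2FC was -0.03. At an unadjusted p under 0.05 there were 8 genes in DESeq2 and 6 in edgeR. The groups did not overlap for 7 of the 22, against 11.4% of all genes tested. Both called genes encode adenylyl cyclases, the enzymes that make cyclic AMP. Adcy1 had 4601, 3661, 2851 and 3796 normalized counts in controls and 1527, 1584 and 1189 in KO, so that every KO library was far below every control. It fell by 1.38 on the log2 scale (SE 0.18, adjusted p 5.83e-12 in DESeq2, 0.0135 in edgeR). Adcy5 had 1245, 1398, 1079 and 950.3 in controls and 2472, 3285 and 1846 in KO, again without overlap. It rose by 1.12 on the log2 scale (SE 0.21, adjusted p 1.36e-05 in DESeq2, 0.0411 in edgeR). In DESeq2 both calls held whichever library was left out. In edgeR the Adcy1 call ended without KO 1, KO 2 or the unnumbered KO library (adjusted p 0.0878, 0.0582 and 0.0546), and the Adcy5 call without control 1, control 3, KO 1 or KO 2 (0.117, 0.134, 0.178 and 0.140). The most abundant genes of the list encode protein kinase A subunits: Prkar1a (6286 normalized counts per kb in controls, 5202 in KO), Prkacb (2234 and 2095) and Prkaca (2025 and 1996).

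Genes of peptide maturation and clearance were tested in 8 of 9 cases, with 1 higher and 1 lower in KO in DESeq2, a median log2FC of -0.02 and 0 calls in edgeR (4 and 3 at an unadjusted p under 0.05). Pcsk1 had 3839, 4327, 2789 and 2025 normalized counts in controls and 6887, 5649 and 5004 in KO, with every KO library above every control. Its log2FC was 0.85 (SE 0.23, adjusted p 0.00982 in DESeq2, 0.177 in edgeR). Pcsk1 did not pass without control 3 (adjusted p 0.0702) or without KO 1 (0.193), nor with the beta cell marker covariate (log2FC 0.41, adjusted p 0.131). Pcsk1n encodes proSAAS, an inhibitor of PC1/3, and had 95169 ± 21014 normalized counts in controls (SD, n = 4) but 57799 ± 10495 in KO (SD, n = 3) (log2FC -0.72, SE 0.18, adjusted p 0.00319 in DESeq2, 0.165 in edgeR). Pcsk2 was not called and stood at 33975 normalized counts per kb in controls and 32542 in KO, against 579 per kb for Pcsk1 in controls. Cpe, the carboxypeptidase that trims basic residues from cut peptides, stood at 52344 and 39349 per kb and was not called, but passed without control 4 or without KO 2 (adjusted p 0.0116 and 0.0291 in DESeq2). Cpe also passed in DESeq2 without the 2 deepest libraries (adjusted p 0.0195), with them as a batch term (0.000182) and with the covariate (0.042). Dpp4, whose product inactivates the incretins, had a log2FC of 0.03 (adjusted p 1.00).

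Among 12 factors known to act on the glucagon gene, 11 were tested, with a median log2FC of 0.01, and Maf and Isl1 rose. Maf, a gene of the large MAF factors, stood at 9.08, 36.6, 10.5 and 10.8 normalized counts in controls and at 133, 163 and 57.8 in KO (log2FC 2.82, SE 0.64, adjusted p 0.000672 in DESeq2, 0.0809 in edgeR). Control 2 was the highest control for Maf, and without KO 2 the adjusted p was 0.0587. Isl1, a LIM homeodomain factor of all islet cells, stood at 2474 normalized counts per kb in controls and 3357 in KO and had a log2FC of 0.44 (SE 0.13, adjusted p 0.0251 in DESeq2, 0.169 in edgeR). It did not pass without control 1, control 3, KO 1 or KO 2, where the adjusted p was 0.123, 0.130, 0.144 and 0.237. With the beta cell marker covariate neither Maf (log2FC 2.16, adjusted p 0.0901) nor Isl1 (0.45, 0.108) passed. Pax6, Foxa2 and Neurod1 were not called, with log2FCs of 0.01, -0.26 and -0.16, although Foxa2 passed with that covariate (adjusted p 0.0367).

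**Figure D5:**
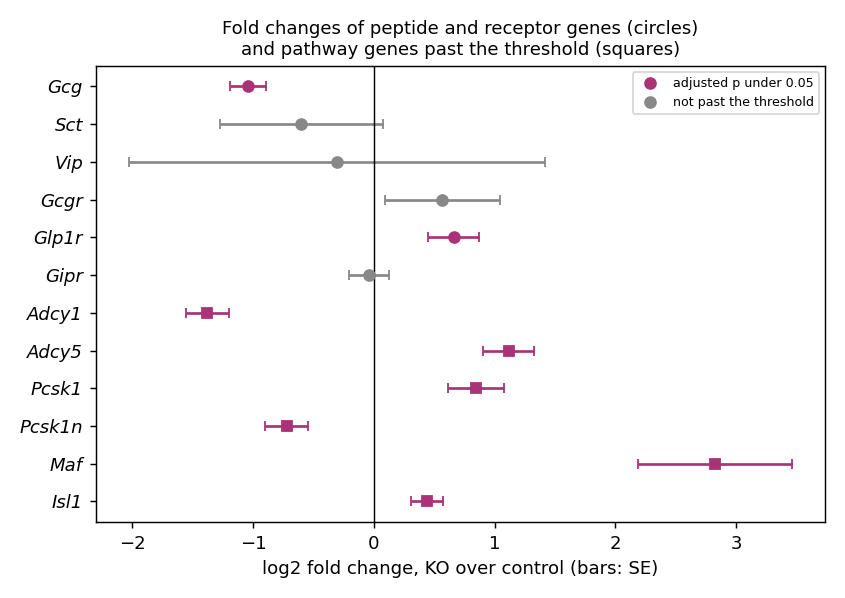
Log2 fold change of KO over control with its SE for the 6 tested peptide and receptor genes (circles) and 6 pathway genes past the threshold (squares). Purple marks an adjusted p under 0.05 in DESeq2, and a value right of 0 is higher in KO.

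On chromosome 2 the nearest protein-coding neighbours of Gcg are Fap (17.3 kb), Ifih1 (112 kb) and Gca (181 kb) on one side and Dpp4 (62.3 kb), Slc4a10 (148 kb) and Tbr1 (660 kb) on the other. Of these 6, only Ifih1 was called in DESeq2. Ifih1 encodes a sensor of double-stranded RNA and had 3343, 2676, 3912 and 3681 normalized counts in controls and 1971, 2461 and 1807 in KO, without overlap. Its log2FC was -0.71 (SE 0.17, adjusted p 0.00126 in DESeq2, 0.0764 in edgeR). It did not pass with the replicate number as a block, over numbers 1 and 2 only (log2FC -0.44, adjusted p 0.170). With the beta cell marker covariate it did not pass either (log2FC -0.57, adjusted p 0.0821). Fap, the closest neighbour and a gene of activated fibroblasts, had 5.23 to 20.2 normalized counts in controls and 19.6 to 37.2 in KO (log2FC 1.36, adjusted p 0.595). Gca (0.06) and Slc4a10 (0.39) had log2FCs with adjusted p-values of 1.00 and 0.648, and Tbr1 had at most 2.89 normalized counts in any library and was not tested.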

How the data were processed

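RNA from sorted tdTomato-positive alpha cells was extracted with a Qiagen micro kit and sequenced from stranded total RNA libraries (Takara SMARTer, Pico input), per the labels' protocols. The authors deposited raw counts per gene. FastQC, STAR, featureCounts, DESeq2 and mm10 are named in the submitters' processing notes, without settings. Gene positions and exon lengths are from GENCODE M21 (GRCm38).

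All 7 libraries (4 control, 3 KO) were fitted with DESeq2 1.42.0 in R 4.3.3 at default settings, the test that the design text states, with Benjamini-Hochberg adjustment over all genes and a threshold of 0.05. The quasi-likelihood test of edgeR 4.0.16 (TMM, default filter) is printed beside it. Fits were checked on simulated counts that gave all genes the same spread setting, which does not cover the spread of these data. Intervals are at 95% and cover counting error or the fitted SE only. Between 84.3% and 88.9% of counts from 1 to 10 were even; how read pairs were counted is not given in the sources used here, and an alternative halved all counts.

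The genes and lists were chosen with earlier results of these data known. Named besides the 10 genes were listed genes past the threshold, the 3 most abundant of each pathway list per kb, the 3 nearest coding genes on each side of Gcg, and the 3 most similar patterns for each gene with a mean of at least 100 normalized counts. Prph, Arrb2, Pde3b, Pde4d, Calcrl, Glp2r and the markers and regulators that did not pass were named after their values were seen. Some listed genes are counted but not reported here by name. Of the enteroendocrine list, 8 of 9 genes were found. The other cell type lists, by genes higher and lower in DESeq2, were gamma (1 and 0), enteroendocrine (0 and 1), acinar (0 and 0), duct (1 and 0), endothelial (0 and 0), leukocyte (0 and 1) and mesenchymal (0 and 0).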

Additional observations from a re-analysis of the deposited data

Results flagged for a closer look

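In 5 of 51 genes examined, 1 control library lay apart from the other 3 by Dixon's criterion at the 95% level, where chance gives about 1 in 20 groups, or 2.55. For Pcsk2, control 4 had 165180 normalized counts against 294130 to 318439 in the other controls. For Grk3, control 4 had 8266 against 5249 to 5543. For Maf, control 2 had 36.6 against 9.08 to 10.8. The remaining flags concern genes at the limit of detection: Sctr had 2.36 normalized counts in control 2 and Tbr1 had 2.89 in control 4, each against 0 in the other controls. A lone value above 0 among zeros always meets the criterion, so the chance share does not apply to these flags. Among the 10 peptide and receptor genes, Sctr was the only one flagged.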

How the results depend on the processing

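Against 769 genes called with DESeq2, the count was 203 with edgeR, 1371 when the 2 deepest libraries formed a batch, 451 with the beta cell marker covariate and 430 to 891 when 1 library was left out, lowest without KO 1. Of the peptide and receptor genes, 2 were called, against 0 with edgeR and 1 (Gcg) with size factors from genes without opposite-strand exons, without independent filtering, with halved counts and with the covariate; leaving out 1 library gave 1 to 2. Gcg had a log2FC of -1.04 (adjusted p 0.175) in edgeR and passed in the other 19 of 20 alternatives. Glp1r had 0.66 in edgeR (adjusted p 0.277), 0.67 with those size factors (0.0570), 0.66 without independent filtering (0.0824), 0.66 with halved counts (0.0508) and 0.22 with the covariate (0.577); leaving out 1 library gave 0.39 to 0.79. Directions turned for values that passed no test: Vip 0.051 with the covariate and -0.90 to 0.28 without 1 library, Gcgr -0.29 with the replicate block, Gipr 0.075 scaled to totals, 0.023 with the covariate and -0.19 to 0.13 without 1 library, Dpp4 -0.020 without the 2 deepest libraries, -0.085 with the block, -0.15 with the covariate and -0.057 to 0.13 without 1 library, and Gca -0.089 to 0.19 without 1 library. The cause was not tested. The covariate and the size factors without Gcg, ribosomal and mitochondrial genes were chosen after the data were seen.

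The replicate block used numbers 1 and 2, which sample titles of both groups carry. The KO column numbered 4 matches no title and was not paired, so this fit left out that column, control 3 and control 4. The block gave 579 calls, with Gcg at -0.92 and Glp1r at 0.54 (adjusted p 1.13e-12 and 0.00143) and Vip at -5.21 (0.857), with 0 Vip counts in KO 1. Deviations from the group means correlated at 0.290 for number 1, 0.283 for number 2 and 0.480 for control 4 with the column numbered 4, these last being the 2 deepest libraries, but at 0.377 for control 3 with KO 2. Whether equal numbers mark paired samples is not given in the sources used here.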

Other observations

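The following class B receptor genes were singled out after their values were seen, and neither was called with all 7 libraries. Calcrl, the receptor of adrenomedullin and, with Ramp1, of CGRP, had 20.4, 113, 0 and 11.6 normalized counts in controls and 219, 450.3 and 227 in KO, higher in all 3 KO libraries than in any control (log2FC 3.04, adjusted p 0.363 in DESeq2 and 0.300 in edgeR). Glp2r, the receptor of the second glucagon-like peptide, had 0 counts in all 4 controls and 9.78, 2.07 and 1.48 normalized counts in the KO libraries, and was not tested. Endothelial markers, among which Calcrl is also known, had summed levels of 369 to 556 in controls and 357 to 921 in KO. Their part in the Calcrl counts was not tested.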
